A study of Mus musculus with 6 samples.

Results

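Cxcl5, Ppbp, Pf4, Cxcl3, Cxcl1 and Cxcl2 are 6 CXC chemokine genes that lie in a row on mouse chromosome 5, and they were followed here in macrophages co-cultured with cancer cells. They were taken by gene symbol from a table of 56691 genes. Each symbol matched 1 row, and all 6 genes were among the 14113 that passed a filter on low counts. The genes were selected on name and place in the cluster with their contact and transwell levels in this series already known, so their changes are given as a description, with no p-value for a member, and they support nothing by themselves. The question put to them was whether the cluster moves as one.

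The cells were mouse bone marrow-derived macrophages grown with M-CSF, the growth factor of the macrophage lineage, which were sorted once they had been cultured with mEC25 cells, a cancer line by the labels. In the contact group (3 libraries) the macrophages touched the cancer cells, and in the transwell group (3 libraries) the cultures were kept apart by a transwell. M-CSF was given in both groups. The labels give neither strain, age, duration of co-culture and sort gate nor whether the replicates are separate cultures or animals. p-values here thus measure the spread between these libraries, which may be technical.

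CXC chemokines are small secreted proteins named for a pair of cysteines parted by a single residue. Those with the residues glutamate, leucine and arginine (ELR) just before that motif bind the receptor CXCR2 and draw neutrophils. Cxcl1, Cxcl2, Cxcl3 and Cxcl5 are of this kind, and macrophages transcribe several of them when Toll-like receptor ligands or interleukin-1 activate the transcription factor NF-kB. Ppbp encodes a precursor protein of platelet granules, from which proteases release a neutrophil attractant. Pf4, platelet factor, lacks ELR, binds heparin-like sugar chains and is also transcribed by macrophages.

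The difference between the attractants and Pf4 can be read in the codons just before and across the CXC motif. They are shown from the GENCODE M21 coding transcript of each gene because ELR is what parts the 5 neutrophil attractants from Pf4. Capitals mark the codons of ELR, and the lower-case bases that follow encode the CXC motif.

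Cxcl5, codons 50 to 55: GAGCTGCGTtgtgtttgc

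Ppbp, codons 49 to 54: GAACTGCGCtgcagatgt

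Pf4, codons 41 to 46: gatcttagctgtgtgtgt

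Cxcl3, codons 33 to 38: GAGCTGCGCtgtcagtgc

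Cxcl1, codons 30 to 35: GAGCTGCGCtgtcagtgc

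Cxcl2, codons 33 to 38: GAACTGCGCtgtcaatgc

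Cxcl3 and Cxcl1 had the same bases over this stretch. Over the whole coding sequence Cxcl3 was closest to Cxcl2, at 89.7% identity, and had 72.7% identity with Cxcl1. Cxcl5 had between 47.3% and 49.2% identity with the other members. Gaps count in these percentages, and the coding sequence of Cxcl5 is the longest of the members, at 396 bases. In identical bases Cxcl5 matched Cxcl3, Cxcl1 and Cxcl2 at 193, 195 and 191, and Ppbp matched them at 188, 183 and 186. Of the 2159 stretches of 50 bases in Cxcl2 transcripts, 126 (5.84%) also occur in Cxcl3, so reads there may have been split between them in a way not given in the sources used here. No stretch of that length was shared between any other members.

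All 6 genes are protein-coding, on the plus strand of chromosome 5, and span 146.6 kb on GRCm38. Cxcl5 (ENSMUSG00000029371) lies at chr5:90759360-90761624, Ppbp (ENSMUSG00000029372) at chr5:90768518-90770063 and Pf4 (ENSMUSG00000029373) at chr5:90772435-90773383. Cxcl3 (ENSMUSG00000029379) follows at chr5:90786103-90789600. After a gap of 101.6 kb come Cxcl1 (ENSMUSG00000029380) at chr5:90891241-90893115 and Cxcl2 (ENSMUSG00000058427) at chr5:90903871-90905938.

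The bases just before the starts of Cxcl3, Cxcl1 and Cxcl2 are shown because these genes share a word there and yet had different changes. Each run is the 110 bases that end before the earlier of the RefSeq and GENCODE starts, from RefSeq promoter windows on GRCm38.p6, plus strand, and capitals mark matches to the NF-kB word GGNNTTTCC on either strand.

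Cxcl3, chr5:90785991-90786100: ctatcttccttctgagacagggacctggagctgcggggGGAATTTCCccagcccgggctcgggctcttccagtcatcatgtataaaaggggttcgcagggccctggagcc

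Cxcl1, chr5:90891131-90891240: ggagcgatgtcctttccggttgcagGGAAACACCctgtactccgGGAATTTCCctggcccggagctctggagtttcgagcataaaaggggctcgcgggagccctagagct

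Cxcl2, chr5:90903761-90903870: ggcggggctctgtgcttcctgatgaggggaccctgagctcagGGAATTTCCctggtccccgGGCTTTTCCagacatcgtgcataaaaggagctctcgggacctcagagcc

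The word GGAATTTCC begins 74 bases before the GENCODE start of Cxcl3, 66 before that of Cxcl1 and 68 before that of Cxcl2. It was present in 0.317% of the 32851 promoter windows of 300 bases, and GGNNTTTCC in 5.82%. GGAATTTCC was picked as the match that Cxcl3, Cxcl1 and Cxcl2 share, so its share of windows is a description only. Cxcl1 and Cxcl2 each held a second match to GGNNTTTCC, and Cxcl3 held 1 match in all. The windows of Ppbp and Pf4 held 0 matches to it. GAAANNGAA, a word of interferon-response elements, occurred in 0 of the 5 member windows and in 8.56% of all windows. TTNNGNAA, for C/EBP factors, matched in Pf4 and Cxcl2 (40.7% of all windows), TGANTCA, for AP-1, in Ppbp (7.81%), and TATAAA in Ppbp and Cxcl3 (13.6%). The windows run from 250 bases before the RefSeq start to 50 after it, both strands were searched, and a match is a description of letters, not a binding site. Of the 6 genes, 5 matched an entry in the promoter table, and Cxcl5 did not.

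In contact libraries Cxcl5, Cxcl3, Ppbp, Pf4 and Cxcl1 were lower and Cxcl2 was higher than in transwell libraries. The folds ran from 20.5-fold lower for Cxcl5 to 1.28-fold higher for Cxcl2. Of the 6 genes, 5 passed the threshold as lower and 1 as higher (edgeR's quasi-likelihood test over all genes, Benjamini-Hochberg adjusted p under 0.05), where 16.1% of all genes tested were lower and 21.4% higher. Over all genes tested 37.5% passed in either direction, and nothing is read from the members' count, since this contrast was known when they were gathered. FPKM of the groups did not overlap for any of the 6, as for 51.2% of all genes tested. The median log2 change (contact minus transwell) was -1.64 over the 6 genes and 0.03 over all genes tested. The log2 change and fold of each gene come from counts scaled with TMM, whereas FPKM is scaled by library totals. Folds read from the FPKM values thus differ from them. With library totals only, the log2 change was 0.47 for Cxcl2 and -4.24 for Cxcl5. In bulk RNA, fewer cells that express a gene and less RNA per cell cannot be told apart. Contact libraries also carried epithelial transcripts, as given below, so the levels are those of libraries and not of macrophages alone.

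**Figure D1:**
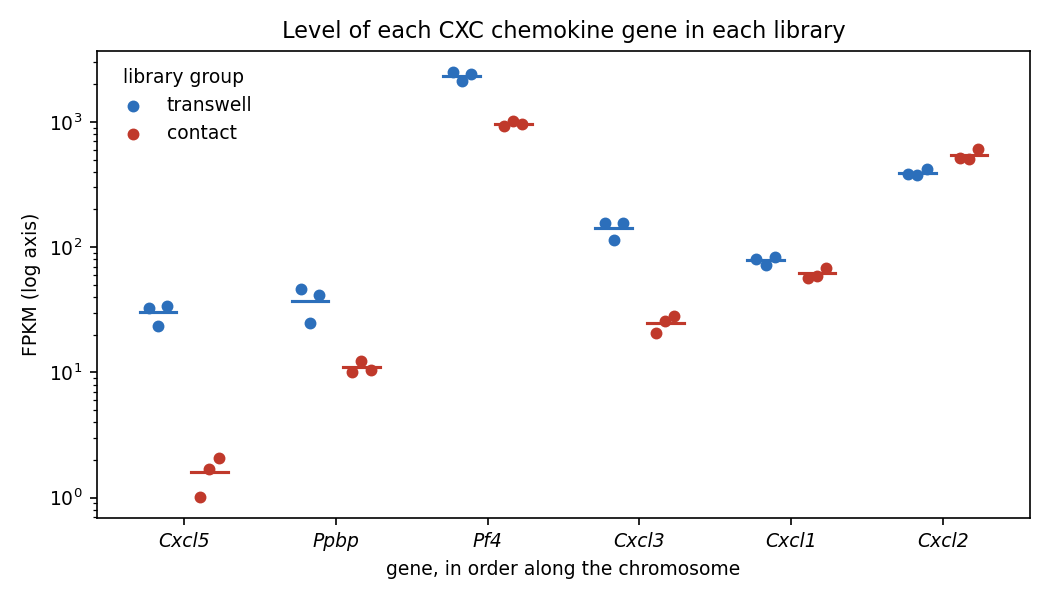
Level of each gene in each library, in FPKM on a log axis, with genes in their order along the chromosome. Points are libraries (3 transwell in blue, 3 contact in red) and lines are group means. Red points lie below blue points for Cxcl5, Ppbp, Pf4, Cxcl3 and Cxcl1, and above them for Cxcl2.

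Cxcl5, the ELR gene with the lowest percent identity to the others, stood at 32.95, 23.63 and 34.05 FPKM in transwell replicates 1 to 3. It stood at 1.02, 1.69 and 2.08 FPKM in contact replicates 1 to 3. Every contact library lay far below every transwell library. The log2 change was -4.36 ± 0.23 (SE), a 20.5-fold lower level. These values rest on 3138 counts over the transwell libraries and 195 over the contact libraries. Of all genes tested, 0.0142% had a log2 change as low or lower.

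Cxcl3 stood at 156.09, 114.47 and 156.43 FPKM in transwell and at 20.61, 25.93 and 28.28 FPKM in contact replicates 1 to 3. Transwell replicate 2 was the lowest of its group, as it was for Cxcl5, yet was far above every contact library. The log2 change was -2.63 ± 0.15, or 6.19-fold lower, and 0.135% of genes tested changed by as much in that direction.

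Cxcl1, the mouse gene often called KC, was lower by much less. It stood at 79.76, 72.11 and 83.03 FPKM in transwell and at 56.96, 59.40 and 68.59 FPKM in contact replicates 1 to 3. The nearest libraries of the groups, contact replicate 3 and transwell replicate 2, were 68.59 and 72.11 FPKM. The log2 change was -0.46 ± 0.09, or 1.38-fold lower, and 11.5% of genes tested had a change as low or lower.

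Cxcl2, whose protein is also known as a macrophage inflammatory protein, went the other way. It stood at 381.51, 376.24 and 417.89 FPKM in transwell and at 514.04, 505.04 and 613.19 FPKM in contact replicates 1 to 3. Contact replicate 3 was the highest, and all contact libraries were above all transwell libraries. The log2 change was 0.36 ± 0.09, or 1.28-fold higher, and 74.6% of genes tested had a change as low or lower. Without transwell replicate 2 the log2 change of Cxcl2 was 0.30 and it no longer passed the threshold.

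By FPKM, Pf4 was the most abundant member in both groups and the 14th most abundant gene of all in transwell libraries. It stood at 2504.13, 2104.88 and 2416.18 FPKM in transwell and at 930.51, 1009.65 and 959.48 FPKM in contact replicates 1 to 3. The contact libraries lay close together (966.5 ± 40.0 FPKM, SD, n = 3), at less than the level of any transwell library. The log2 change was -1.39 ± 0.08, or 2.63-fold lower. In counts, which are not divided by length, Cxcl2 exceeded Pf4 over the contact libraries (73979 against 45719).

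Ppbp, the platelet basic protein gene next to Pf4, stood at 46.03, 24.95 and 41.17 FPKM in transwell and at 10.15, 12.32 and 10.40 FPKM in contact replicates 1 to 3. Its transwell libraries varied most of the members, with a coefficient of variation of 29.5%. Transwell replicate 2 was again the lowest, as it was of the transwell libraries for every member. The log2 change was -1.89 ± 0.21, or 3.71-fold lower.

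Ranked by FPKM, the transwell order was Pf4, Cxcl2, Cxcl3, Cxcl1, Ppbp and Cxcl5, and neighbours in that order did not overlap except Ppbp and Cxcl5. In contact libraries Cxcl1 stood above Cxcl3, the rest of the order was the same, and no neighbours overlapped. Cxcl3 exceeded Cxcl1 in each transwell library, by 1.59 to 1.96-fold, and lay at 0.362 to 0.436 of Cxcl1 in contact libraries. FPKM here uses the table's exonic length, which for Cxcl3 is 3498 bases against 1016 in its coding transcript. Per kilobase of the coding transcript, an alternative chosen after the data were seen, the order of the means was the same in both groups. Pf4 and Cxcl2 then overlapped in contact replicates 1 to 3, at 1141, 1238 and 1177 against 958.5, 941.8 and 1143. By that measure Cxcl3 was at 3.43, 2.78 and 3.30 times Cxcl1 in transwell replicates 1 to 3. In contact replicates 1 to 3 it was at 0.633, 0.764 and 0.722 of Cxcl1.

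The 6 genes did not keep their proportions. A common change would leave the ratio of any pair the same in both groups, and this ratio within a library does not depend on how libraries are scaled. Of 15 pairs of members, 14 had ratios that did not overlap between groups, where 51.3% of all pairs among the 13655 tested genes with FPKM above 0 in every library did not. Nothing is read from that count, since it comes from the contrast known when the genes were selected. The pair that overlapped was Ppbp to Pf4, at 0.0109, 0.0122 and 0.0108 in contact and 0.0184, 0.0119 and 0.0170 in transwell replicates 1 to 3. Transwell replicate 2 was the library that overlapped.

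The ratio of Cxcl5 to Cxcl2 shifted most. It was 0.0864, 0.0628 and 0.0815 in transwell and 0.00198, 0.00335 and 0.00339 in contact replicates 1 to 3, a shift of 27.0-fold. Even the adjacent pair Cxcl1 and Cxcl2 shifted, from 0.209, 0.192 and 0.199 in transwell to 0.111, 0.118 and 0.112 in contact. The shift of that pair was 1.76-fold (log2 -0.82), with an SD over 3 libraries of 0.046 in contact and 0.063 in transwell on the log2 scale. Cxcl3 and Cxcl2, the closest pair in coding sequence (89.7% identity), did not change alike, since their ratio shifted 7.89-fold. Reads in the stretches that these 2 genes share may have been split between them, as given above.

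**Figure D2:**
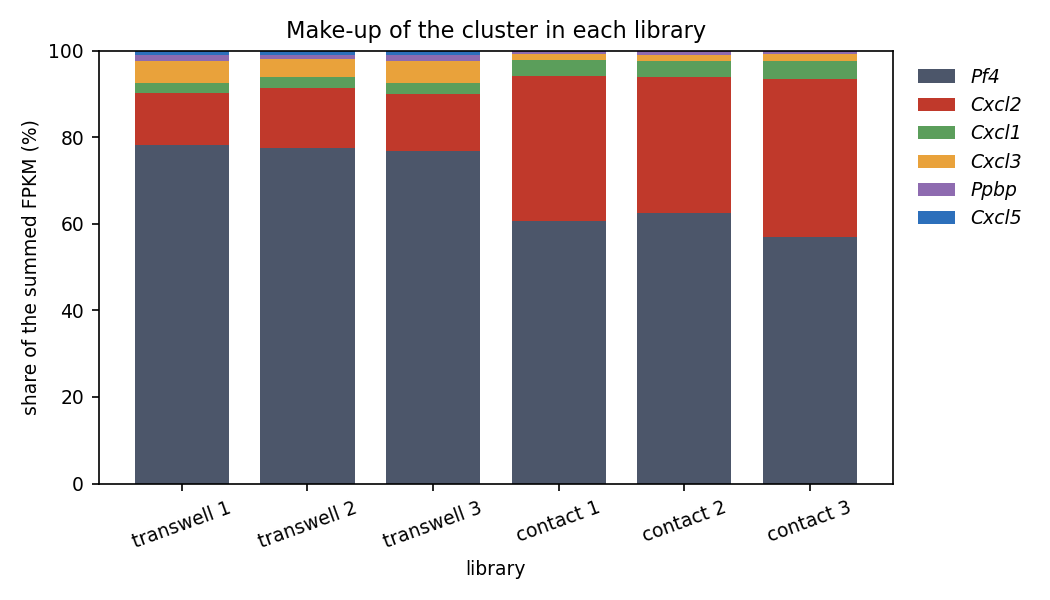
Share of each gene in the summed FPKM of the 6 genes, in percent, for each library (bars stack to 100%). Pf4 fills 76.7 to 78.2% of transwell bars and 57.0 to 62.5% of contact bars, and the Cxcl2 segment is larger in every contact bar.

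Summed over the 6 genes, the level was 3022 ± 265.9 FPKM in transwell and 1610 ± 74.5 FPKM in contact libraries (SD, n = 3). Pf4 made up 77.5 ± 0.75% of it in transwell and 60.1 ± 2.8% in contact libraries. Cxcl2 made up 13.0 ± 0.99% in transwell and 33.8 ± 2.6% in contact. Cxcl3 went from 4.69 ± 0.41% to 1.54 ± 0.18%, and Cxcl5 from 0.994 ± 0.11% to 0.0983 ± 0.029%. Per kilobase of the coding transcript the mean share of Cxcl3 was 11.29% in transwell and 3.54% in contact libraries. In the same order, that of Cxcl2 was 16.98% and 41.86%, and that of Pf4 was 66.49% and 49.07%.

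Among the 4 ELR genes other than Ppbp, the sum was 642.7 ± 52.9 FPKM in transwell and 632.3 ± 69.2 FPKM in contact libraries, and the groups overlapped. Per kilobase of the coding transcript the sums were 1411 ± 131 and 1223 ± 134, which also overlapped. Within that sum Cxcl2 held 61.1 ± 2.8% in transwell and 86.1 ± 0.72% in contact libraries, while Cxcl3 held 22.1 ± 2.3% and 3.94 ± 0.45%. Cxcl5 held 4.67 ± 0.56% in transwell and 0.25 ± 0.067% in contact libraries. Cxcl2 thus held most of this sum in both groups, and more of it in contact libraries. The sums are in FPKM, scaled by library totals, and their overlap was not examined under another scaling.

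**Figure D3:**
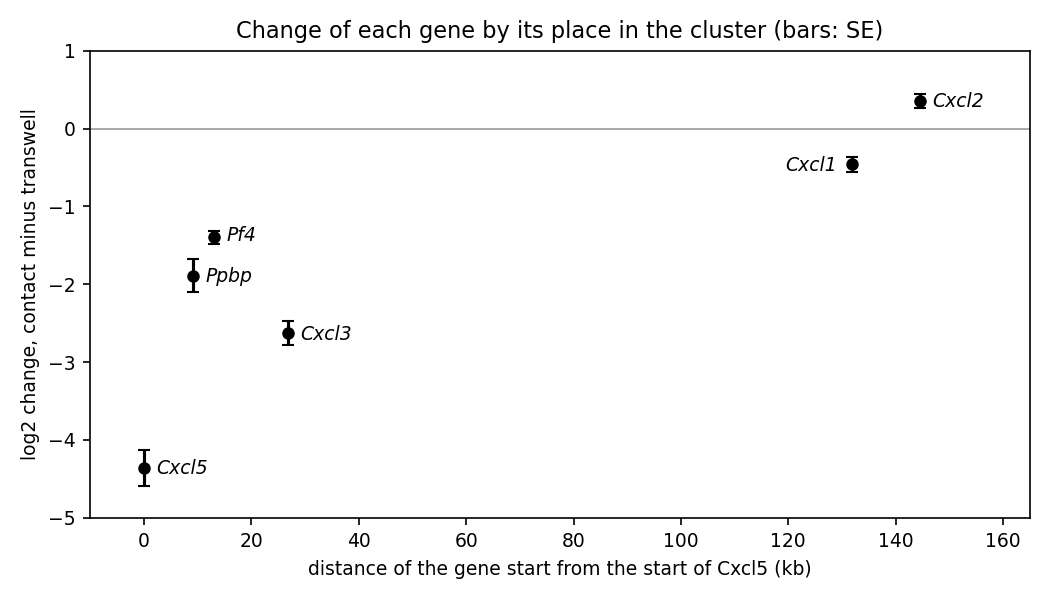
Log2 change of each gene (contact minus transwell, points, with SE as bars) against the distance of its start from that of Cxcl5, in kb. The 4 genes at the left, from Cxcl5 to Cxcl3, lie between -4.36 and -1.39, and Cxcl1 and Cxcl2 at the right lie at -0.46 and 0.36.

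By position the 4 genes at the Cxcl5 end, Cxcl5, Ppbp, Pf4 and Cxcl3, had the lower log2 changes and the pair at the other end, Cxcl1 and Cxcl2, the higher ones. Within the first block the order of changes did not follow the order on the chromosome, since Pf4 and Ppbp lie between Cxcl5 and Cxcl3 and were lowered less than either. Cxcl15, the coding gene between the members, is known from lung and had 1 count over the contact and 1 over the transwell libraries. Outside the members, within 500 kb, 4 of 7 coding genes before Cxcl5 were tested and 1 was lower, Afp (5.01 ± 0.77 FPKM in transwell, 2.76 ± 0.22 in contact, edgeR adjusted p = 0.00049). After Cxcl2, 3 of 5 coding genes were tested and 2 were higher, the growth factor genes Areg and Ereg. Over all genes tested 21.4% were higher and 16.1% lower. Ereg had 2, 0 and 0 counts in transwell and 549, 808 and 468 in contact replicates 1 to 3. These were named after their values were seen.

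The genes whose levels followed each member most closely over the 6 libraries were found by the root mean square difference of centred log2(FPKM + 0.1) among 10321 genes. For Cxcl5 they were Slc13a3, a dicarboxylate transporter gene (0.49), Susd2 (0.67) and Fcrls (0.74), and Cxcl3 came 5th. For Cxcl3 they were Ccl2, the monocyte attractant gene (0.19), Ifit3, an interferon-induced gene (0.21), and Cfb, complement factor B (0.22). Ppbp, the member nearest to Cxcl3, came 23rd.

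For Ppbp the nearest genes were Prdx6, a peroxiredoxin gene (0.22), Isg15 (0.22) and H2-T22 (0.22), with Pf4 16th. For Pf4 they were Plin2, a lipid droplet coat gene (0.062), Pcx (0.083) and Cmpk2 (0.084), with Ppbp 205th. For Cxcl1 they were Fcho1 (0.033), H2bc4 (0.046) and Clec10a (0.050), and for Cxcl2 Plekha8 (0.059), Spryd7 (0.062) and Fbxo22 (0.062). Cxcl2 came 7643rd for Cxcl1, and Cxcl1 8156th for Cxcl2. The measure is a description over 6 libraries in which the groups set most of the pattern.

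The 4 signalling lists covered receptors and binding partners, inducing cytokines and their receptors, NF-kB and C/EBP regulators, and mRNA decay and stability factors. Inhibitors of NF-kB and factors of mRNA decay are among them, so the listed genes do not all act on the ligands in the same direction. The lists held 54 genes, of which 51 were tested. In contact libraries 29 of them were higher and 6 lower, and the median log2 change was 0.43. Over all genes tested 37.5% were called, 21.4% as higher and 16.1% as lower. The same shares stand beside the counts of each list and marker set below. The count of lower signalling genes was 3 without contact replicate 1, without transwell replicate 3 and with library totals only. It was also 3 in limma with a pseudocount of 1 or 0.1, and 5 in limma after quantile normalization.

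**Figure D4:**
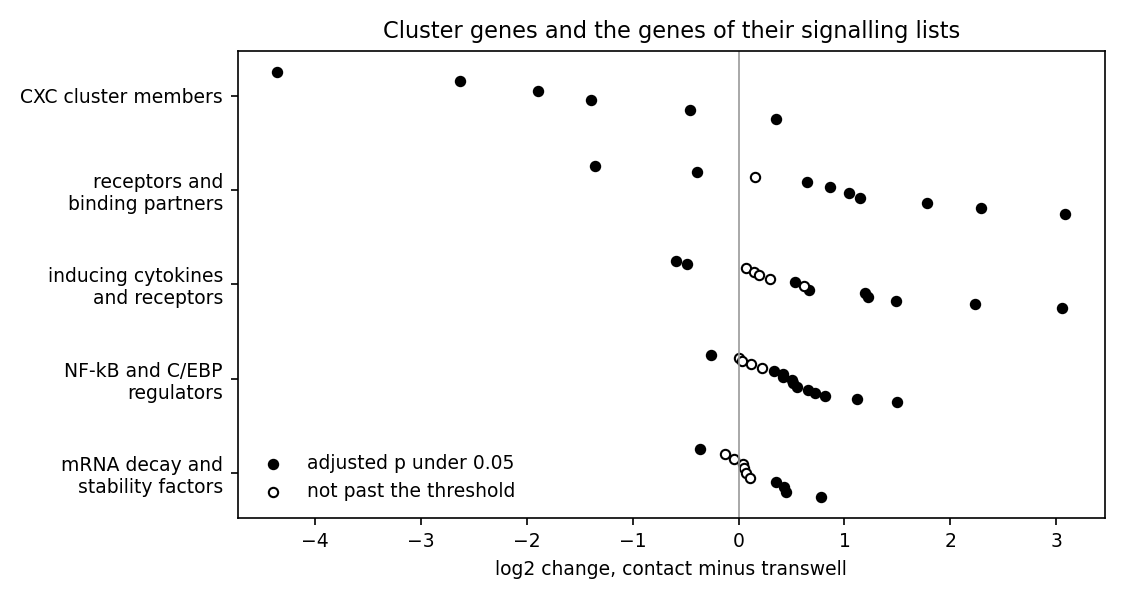
Log2 change (contact minus transwell) of the 6 members and of the tested genes of the 4 signalling lists. Each point is a gene, filled where its adjusted p is under 0.05 over all genes and open otherwise. Of the 51 signalling genes 29 are filled at the right of 0 and 6 at the left, while 5 of the 6 members lie at the left.

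Among receptors and binding partners, 7 of 10 tested genes were higher and 2 lower (median log2 change 0.95). Cxcr2, the receptor gene for the ELR chemokines, went from 0.853 ± 0.30 FPKM in transwell to 4.54 ± 0.35 FPKM in contact libraries (log2 change 2.29 ± 0.22, edgeR adjusted p = 3.6e-05). Its counts were 69, 36 and 40 in transwell and 285, 298 and 324 in contact replicates 1 to 3. Cxcr1 and Ackr1, the decoy receptor gene of red cells and vessels, were too low to be tested, with at most 5 counts in a library.

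Most proteoglycan genes of the list, whose products can bind chemokines, were higher. Sdc1 was at 113.6 ± 4.5 FPKM in contact against 30.6 ± 3.5 FPKM in transwell libraries. Sdc2 (log2 change 3.08 ± 0.26), Sdc4 (1.04), Vcan (1.15), Srgn (0.87) and Cd44 (0.65) were higher too. Sdc3 was the proteoglycan gene of the list that was lower (43.3 ± 2.0 against 102.4 ± 3.3 FPKM). Ccr1, the gene of a chemokine receptor on which Pf4 protein has been described to act, was lower by 1.32-fold (log2 change -0.39).

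Of 14 tested inducing cytokines and receptors, 7 were higher and 2 lower (median 0.58). Il1b, an inducer of ELR chemokines in many cells, was 8.28-fold higher (1408 ± 39.3 against 156.9 ± 0.71 FPKM). Il6 (2.23 ± 0.16), Cd14, the co-receptor for lipopolysaccharide (1.49 ± 0.07), and Il17ra, a receptor chain for interleukin-17 (1.22 ± 0.09), were higher as well. Tnf (0.53) and Tlr2 (1.19) were higher, while Tlr4 (-0.59) and Tnfrsf1a (-0.49) were lower.

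Of 16 NF-kB and C/EBP regulators, 11 were higher and 1, Atf3, was lower (median 0.46). The inhibitor gene Nfkbie was 2.82-fold higher. Tnfaip3, an inhibitor gene that NF-kB induces (log2 change 1.11 ± 0.10), and the subunit genes Nfkb1 (0.82 ± 0.09) and Nfkb2 (0.72 ± 0.08) were higher too. Among the members with the shared NF-kB word shown above, Cxcl2 was higher with these genes, Cxcl1 was slightly lower and Cxcl3 was 6.19-fold lower. Of 11 mRNA decay and stability factors 4 were higher and 1, Arid5a, was lower. Their median of 0.07 was near the 0.03 of all genes tested, and Arid5a lost its call in 7 of 16 alternatives. Zfp36, whose protein speeds the decay of AU-rich cytokine transcripts, was higher with a log2 change of 0.43 ± 0.10 (edgeR adjusted p = 0.0061).

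Of the other CXC ligand genes, 5 of 9 were tested. Cxcl10, an interferon-induced ligand on the same chromosome, was 3.67-fold higher (6.39 ± 0.64 against 1.61 ± 0.32 FPKM), Cxcl16 was higher (log2 change 0.62) and Cxcl14 lower (-0.65). The direction of Cxcl10 was thus opposite to that of 5 of the 6 members.

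Libraries held 20911880 to 22563835 counts in contact and 18173192 to 18895818 in transwell. The macrophage label was met by the markers Adgre1, Csf1r, Cd68, Lyz2 and the like. These 12 genes summed to 15100 to 17030 FPKM in contact and 16500 to 17580 FPKM in transwell libraries. Lyz2 alone made up most of each sum, at 12180 ± 838.4 FPKM in contact and 13310 ± 484.2 FPKM in transwell libraries. Of the 12 markers 5 were higher and 5 lower in contact, with Adgre1 at 577.8 ± 57.1 against 1228 ± 83.7 FPKM.

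Contact libraries also carried transcripts of epithelium. The 29 epithelial markers summed to 1163, 1749 and 996.4 FPKM in contact replicates 1 to 3 and to 9.44 to 10.4 FPKM in transwell libraries. Of 23 tested all were higher, and Dsg3, Krt15 and Cldn4 had 0 counts in every transwell library. Epithelial cells can transcribe Cxcl1, Cxcl2 and Cxcl5, and what part these cells have in the levels was not tested. Cxcl2 was highest in contact replicate 3 (613.19 FPKM), which had the lowest epithelial sum, and lowest in replicate 2 (505.04 FPKM), which had the highest. Cxcl1, Cxcl3 and Cxcl5 were also highest in contact replicate 3 but were lowest in replicate 1, not in replicate 2, so their order was neither that of the epithelial sum nor its reverse. Areg and Ereg, the neighbours beyond Cxcl2, were highest in contact replicate 2 and lowest in replicate 3, as the epithelial sum was.

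Markers of megakaryocytes and platelets, which transcribe Pf4 and Ppbp, were low. The 14 markers summed to 5.02 to 6.26 FPKM in contact libraries and to 13.1, 5.99 and 9.09 FPKM in transwell replicates 1 to 3. Of 10 tested 0 were higher and 5 lower, among them Itgb3 (log2 change -1.68) and Vwf (-0.76), and none was at 0 in all libraries. Ppbp and Pf4 ranked in the transwell libraries as this sum did, highest in replicate 1 and lowest in replicate 2, but Ppbp and Pf4 were highest in contact replicate 2, where the sum was lowest. Pf4 was at 930.51 FPKM or more in every library, while no single marker of the list had a mean above 1.77 FPKM in either group. What part such cells have in the 2 genes was not tested.

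Of 12 tested neutrophil markers 5 were higher, among them the granule genes Elane (29.3 ± 7.3 against 3.92 ± 1.9 FPKM) and Mpo (21.4 ± 4.6 against 3.21 ± 2.1 FPKM) and Cxcr2 itself, and 2 were lower, Mmp8 and Lcn2. The 13 markers summed to 963.6 to 1319 FPKM in contact and 866.5 to 1550 FPKM in transwell libraries. S100a8 and S100a9 made up most of each sum, and neither was called. Ly6g, the defining marker of mature neutrophils, had at most 4 counts in a library. The part of neutrophils in the level of Cxcr2 was not tested. Fibroblast markers, 9 genes, summed to 10.96 to 25.43 FPKM in contact and 3.63 to 8.23 FPKM in transwell libraries, with 5 of 7 tested higher and 0 lower.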

How the data were processed

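Counts per Ensembl gene, FPKM and exonic lengths for the 6 libraries were deposited by the authors, per the file headers. Builds GRCm38 and mm10 are named, per the submitters' processing notes. Aligner, counter, annotation and strandedness: not given in the sources used here. Of 52073 gene IDs shared with GENCODE M21 (GRCm38), 1472 agreed in start and end with the deposited table, so positions come from GENCODE M21 and RefSeq. Of FPKM values with counts above 100, 99.93% were recomputed from the deposited counts, exonic lengths and library totals to within 1%. Replicates differed by 6.38 to 25.2 chi-square units per degree of freedom, so none was counted as a duplicate.

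Genes were filtered with filterByExpr (minimum count 10), scaled with TMM and tested with edgeR 4.0.16 (R 4.3.3, quasi-likelihood, two-sided, Benjamini-Hochberg adjusted, threshold 0.05), contact against transwell. Adjusted p-values are over 14113 genes. The SE is the absolute log2 change over the square root of F. The fit was also run on simulated counts in which every gene had the same spread between replicates beyond counting noise. That run checked the code and gives no rate of false calls for these data. The members and lists were chosen with earlier results of these data known. The named genes are the members, the 3 genes nearest to each, and up to 4 called genes of each list, beside Cxcr1, Cxcr2, Ackr1 and Cxcl15. The neighbouring genes and other list genes were named after their values were seen. Alternatives were other filters and scalings, limma 3.58.1 on log2(FPKM + 1) or log2(FPKM + 0.1), DESeq2 1.42.0, a replicate block and each library left out in turn. Coding sequences were aligned with Biopython 1.88, and figures drawn with matplotlib 3.10.9.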

Additional observations from a re-analysis of the deposited data

How the results depend on the processing

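Over 16 alternatives, which left out each library in turn or changed the filter, the scaling, the test or the block, each member kept its direction, and the members kept the same order of log2 changes from Cxcl5 to Cxcl2. The 5 lower members passed the threshold under all 16, and Cxcl2 under 15. Without transwell replicate 2, the log2 change of Cxcl2 was 0.30 and did not pass, so 0 members were then called higher, with a range of 0 to 1 over the libraries left out. With each library left out, the log2 changes ranged from 0.26 to 0.42 for Cxcl2, from -4.60 to -4.12 for Cxcl5 and from -2.15 to -1.71 for Ppbp.

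Genes called higher and lower over all genes were 3016 and 2270 in the test reported. They were 3945 and 1450 with library totals only, 3811 and 1422 in limma with a pseudocount of 1, 3900 and 1442 with 0.1, and 2390 and 3418 after quantile normalization. Of all calls 57.1% were higher in the test reported, and 73.1%, 72.8%, 73.0% and 41.2% under these in turn. The median over all genes moved by 0.12 with library totals only and by 0.11 in limma with a pseudocount of 0.1, and by -0.090 after quantile normalization. The 6 lower signalling genes became 3 with library totals only and in limma with either pseudocount, and 3 to 6 with a library left out. The change in share of the summed FPKM, contact minus transwell, was 20.7 percentage points for Cxcl2, -3.14 for Cxcl3 and -0.90 for Cxcl5. As shares of counts they were 29.98, -11.02 and -1.58, and per kilobase of the coding transcript, chosen after the data were seen, 24.9, -7.75 and -0.74. Mthfd2l, a neighbour not called, had a log2 change of 0.18 and of -0.10 after quantile normalization. With the replicate number as a block, 2994 genes were higher and 2130 lower, with the members' calls unchanged. Deviations of same-numbered libraries from their group means correlated at -0.083, -0.445 and 0.056. No library correlated best with its own number, so the numbers were not taken to pair the libraries. Depth limits Cxcl5 most, with 43 counts in contact replicate 1.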
